A study of Mus musculus with 20 samples.

Results

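The genes described here encode the mitochondrial ribosomal proteins, the protein parts of the ribosome that works inside mitochondria. They were taken as every gene of the deposited count table whose symbol begins with Mrpl or Mrps followed by a digit. This gave 77 of 24421 genes, 48 with an Mrpl symbol and 29 with an Mrps symbol, and all 77 passed the filter on low counts that left 12465 genes for testing. The choice used the names alone and no measured value, though it was made with earlier results of these data known.

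The mitochondrial ribosome translates the few mRNAs of the mitochondrial genome, which encode core subunits of the respiratory chain and of ATP synthase. Its ribosomal RNAs come from mitochondrial DNA, but every one of its proteins is encoded in the nucleus, made in the cytosol and imported. Some of these proteins descend from those of bacterial ribosomes, and others were added during mitochondrial evolution and have no bacterial counterpart. Cells raise or lower this machinery as they change how much of their energy comes from respiration.

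RNA was sequenced from bone marrow-derived dendritic cells (BMDCs) of wild-type C57BL/6 mice, grown for 8 days with GM-CSF at 40 ng/mL, a culture that yields dendritic cells together with macrophage-like cells. The 20 libraries fall into 4 groups of 5. Each of 5 mice, A to E, is taken to have given 1 library to every group. That pairing is read from the order of the numbered sample titles, which name no mouse, and every statement by mouse below rests on it. DMSO Ova cells received 5% DMSO and ovalbumin, and DMSO IC cells received 5% DMSO and ovalbumin bound by IgG in an immune complex (IC), which engages Fcγ receptors. iBET Ova and iBET IC cells received the same stimuli with 3.3 µM I-BET151 (iBET), an inhibitor of the bromodomain and extra-terminal (BET) proteins that read acetylated histones. Stimulation lasted 4 h in all groups. The labels describe iBET and stimulus as given together while the study's methods place iBET before the stimulus, and the labels give no DMSO content for the iBET cells. Each comparison below asks how iBET, or IC, changed the mRNA of these genes.

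Library totals ran from 16447491 to 29245150 assigned counts, and the members held between 84 and 1384 counts in any library, so none was near the detection limit. After group means were removed, the largest component of variation over all tested genes held 47.5% of the variance and placed mice A and B (-32.2 to -23.9) apart from mice C, D and E (14.5 to 23.2). No label names a reason for that split, so counts are also given within each set of mice. All 9 dendritic cell markers were tested, and their summed level averaged 6004 CPM (counts scaled to a common library size) in DMSO Ova and 7029 CPM in DMSO IC, and 6437 and 7568 CPM in the matching iBET groups. Cd74 and Itgax held most of that sum and were at higher mean levels with iBET, while the other 7 had a log2 fold change below 0 with each stimulus (list median -0.21 with Ova and -0.22 with IC). With iBET 0 of the 9 were higher and 1 was lower with each stimulus, and with the mouse as a block 1 was higher and 6 lower with Ova, and 2 and 6 with IC. Flt3, one of these markers, was at 3.03, 2.56, 0.242 and 0.349 CPM in the order of groups above. The 9 macrophage markers summed to 1833, 1899, 1286 and 1475 CPM, and with iBET 1 was higher and 5 were lower in Ova, and 1 higher and 3 lower in IC. Markers of neutrophils and of mast cells and basophils summed to at most 57.1 and 45.8 CPM in any library, and those of T and B cells to at most 0.408 CPM. The part of dendritic and macrophage-like cells in the member differences was not tested, and in these bulk samples fewer cells of a type and less RNA per cell cannot be told apart.

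Measured per kilobase of annotated exon, which allows levels to be compared between genes, the 77 members had a median of 9.04 CPM per kb over the 20 libraries. The levels spanned 33.8-fold, from 1.26 CPM per kb for Mrps10, a small-subunit protein with a bacterial relative, to 42.6 CPM per kb for Mrps21. After Mrps21 the highest levels per kb were those of Mrpl34 at 32.2, Mrpl52 at 27.8, Mrpl2 at 27.3 and Mrpl54 at 26.5, and above Mrps10 the lowest were Mrpl47 at 1.38 and Mrps35 at 1.56. The length is that of all annotated exons of a gene together, so a gene with long alternative exons has a low value on this scale. The members lie on 17 chromosomes with at most 10 on any, chromosome 11, and all 77 are annotated as protein-coding.

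The median within-group SD between mice on the log2 scale was 0.119 for members and 0.184 for all tested genes. Mrpl12, a protein of the stalk that recruits translation factors and which also binds the mitochondrial RNA polymerase, had the highest, 0.313, with a mean deviation of -0.35 in mouse A and 0.24 in mouse E. Mrps10 followed at 0.200 and Mrps6 at 0.182. The medians of members and of all tested genes were not matched for level. Every member had at least 84 counts in each library, while some tested genes had far fewer, such as Flt3 with as few as 3.

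After TMM scaling between libraries, the sum of all 77 members moved little. It averaged 1705 ± 80.1 CPM in DMSO Ova, 1782 ± 56.9 in DMSO IC, 1630 ± 80.7 in iBET Ova and 1710 ± 68.2 in iBET IC (SD, n = 5 mice each). With iBET the sum was lower in 4 of 5 mice with Ova, with a mean difference of -74.6 CPM (SD 69.3), and lower in 4 of 5 mice with IC, with a mean difference of -71.8 CPM (SD 102). The difference was about the size of the spread between mice in each case, while single members moved in opposite directions by far more than theirs. As a share of all assigned counts, without that scaling, the members averaged 0.180% in DMSO Ova and 0.175% in DMSO IC. In iBET Ova they averaged 0.166% and in iBET IC 0.162%. This share was lower with iBET in every mouse with each stimulus. Its mean was lower with IC than with Ova, where the scaled sum was higher.

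With iBET, 38 of the 77 members changed with Ova, 10 higher and 28 lower at an adjusted p under 0.05, and 39 changed with IC, 11 higher and 28 lower (edgeR quasi-likelihood test, Benjamini-Hochberg adjustment over all tested genes). Over all tested genes iBET raised 27.7% and lowered 28.9% with Ova, and raised 27.1% and lowered 29.0% with IC. As shares of the members, 13.0% were higher and 36.4% lower with Ova, and 14.3% were higher and 36.4% lower with IC. The median log2 fold change of the members was -0.10 with Ova and -0.11 with IC, beside -0.00 and -0.01 for all tested genes. The called changes ran from 0.17 to 1.14 upwards and from -0.17 to -0.98 downwards with Ova. Of the called members, 13 of 38 with Ova and 12 of 39 with IC were at least 0.5 in size. The share of all tested genes at that size was not counted. With each stimulus the quartiles of log2 fold change were -0.28 and 0.11 for members, and -0.41 and 0.32 for all tested genes. With scaling by library size alone the Ova split became 6 higher and 36 lower, with a member median of -0.16 beside -0.06 for all genes. Over all genes that scaling gave 24.2% higher and 32.1% lower. Within mice A and B the Ova counts were 5 higher and 20 lower, where 21.4% and 22.5% of all genes were, and the IC counts 10 and 11, where 20.4% and 21.5% were. Restricting the test to mice C, D and E gave 17 higher and 17 lower with Ova, where 30.8% and 27.8% of all genes were, and 12 and 25 with IC, where 28.6% and 28.8% were.

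The Ova and IC comparisons used separate libraries, read as those of the same 5 mice. In both, 9 members were called higher and 24 lower, 33 were called in neither, and 0 were called in opposite directions. With Ova alone 1 was called higher and 4 lower, and with IC alone 2 and 4. A call in 1 stimulus is not a difference between stimuli, and the direct test of that difference called 0 of 77 members (below, with the interaction). Of the 38 members called with Ova, 35 moved the same way in 5 of 5 mice, and of the 39 called with IC, 37 did. When each mouse was left out in turn, 24 of the 38 and 30 of the 39 calls held every time, and the others, all under 0.35 in size, were lost without at least 1 mouse. These counts are of members called in the same libraries, so they are no separate support for the calls. The matching shares of all called genes were not counted. The iBET and DMSO values did not overlap for 20 of the 77 members with Ova and for 32 with IC, where 38.0% and 42.8% of all tested genes did not overlap, so neither count stood above that of genes at large.

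**Figure D1:**
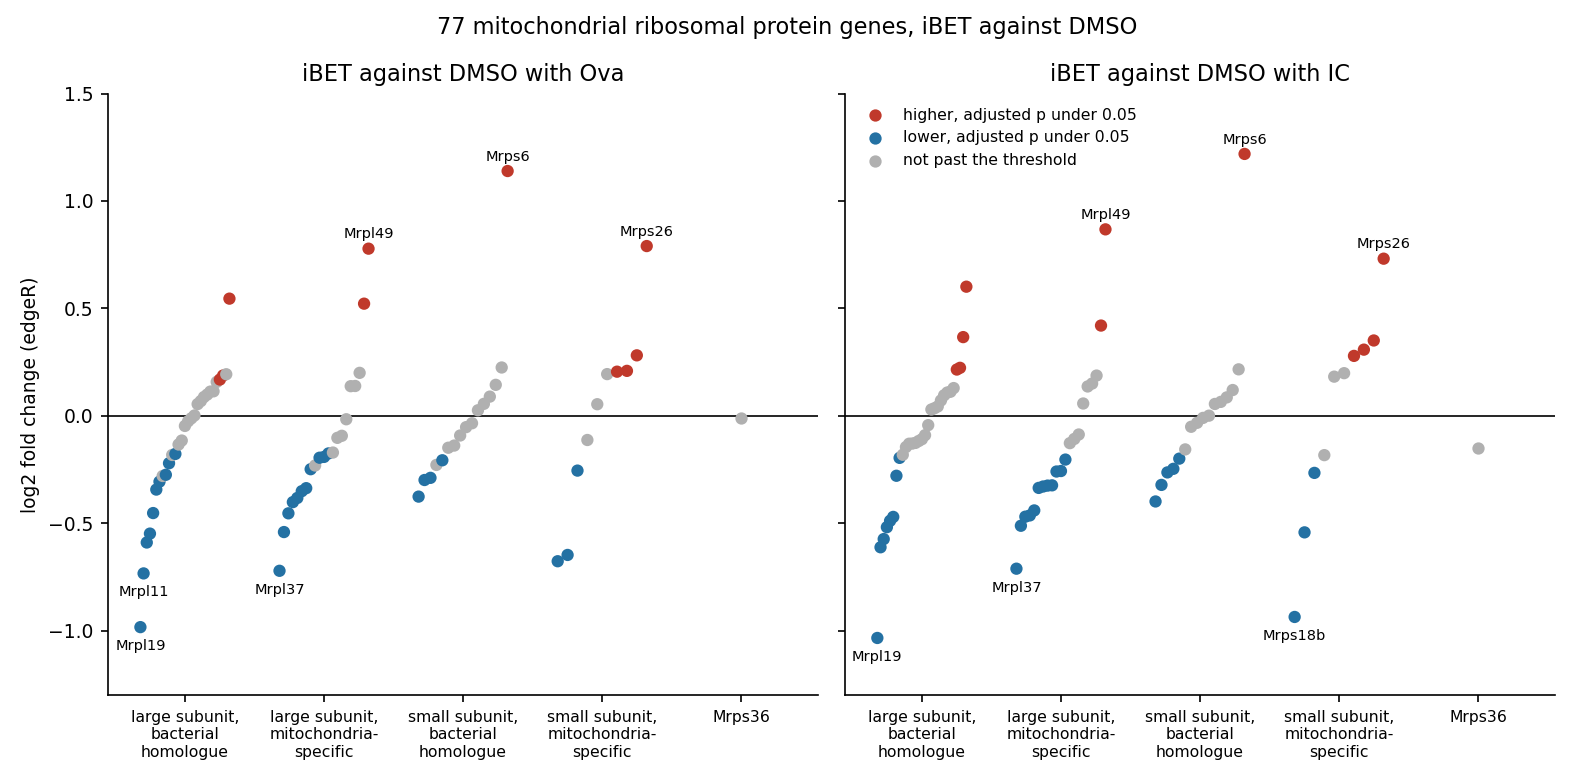
Log2 fold change (edgeR) of each of the 77 members, iBET against DMSO, with Ova on the left and with IC on the right, arranged by place in the ribosome; each point is 1 gene. Red points are higher and blue points lower at an adjusted p under 0.05, grey points passed neither way, and names are given at an absolute change of at least 0.7. The 21 mitochondria-specific proteins of the large subunit lie mostly under 0, and Mrps6, Mrpl49 and Mrps26 stand above the others in both panels.

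Most of the lower calls lay in the large subunit, which forms the peptide bond and holds most of the 77 members. Of its 50 members 5 were higher and 21 lower with Ova (median log2 fold change -0.15), and 6 were higher and 20 lower with IC (-0.13). Of the 26 members of the small subunit, which decodes the mRNA, 5 were higher and 7 lower with Ova (-0.04), and 5 and 8 with IC (-0.00). The 29 large-subunit proteins with a bacterial homologue gave 3 higher and 10 lower with Ova and 4 and 8 with IC, with medians of -0.05 and -0.11. The 21 large-subunit proteins specific to mitochondria gave 2 higher and 11 lower with Ova and 2 and 12 with IC, with medians of -0.19 and -0.26. In the small subunit the 16 bacterial-type proteins gave 1 higher and 4 lower with Ova and 1 and 5 with IC. The 10 small-subunit proteins specific to mitochondria gave 4 higher and 3 lower with each stimulus (40% and 30%), with medians of 0.12 and 0.19. Mrps36, which shares the naming but belongs to the 2-oxoglutarate dehydrogenase complex, was called in neither, at -0.01 ± 0.08 (SE) with Ova and -0.15 ± 0.08 with IC, the latter passing with the mouse as a block (-0.15 ± 0.07, edgeR adjusted p = 0.0489). In the large subunit 42% were lower with Ova and 40% with IC, and in the small 26.9% and 30.8%. Over all tested genes 28.9% and 29.0% were. The higher shares were 10% and 12% in the large subunit and 19.2% with each stimulus in the small, beside 27.7% and 27.1%. Large-subunit proteins with a bacterial homologue were lower in 34.5% and 27.6%, and those specific to mitochondria in 52.4% and 57.1%. No test compared these classes with each other.

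The largest rise with iBET was in Mrps6 (ENSMUSG00000039680.10, chr16:92058270-92112227, GRCm38, plus strand), a small-subunit protein with a bacterial homologue. Without iBET it was at 6.64, 7.53, 7.02, 7.32 and 8.11 CPM in mice A to E with Ova, and at 5.30, 7.08, 7.70, 7.74 and 8.16 CPM with IC. With iBET it was at 13.1, 15.5, 18.3, 15.6 and 18.1 CPM with Ova, and at 14.3, 16.1, 17.3, 17.8 and 18.7 CPM with IC. Mouse A was lowest in every group, and the lowest iBET value lay well above the highest DMSO value. The log2 fold change was 1.14 ± 0.11 (SE) in Ova and 1.22 ± 0.11 in IC (edgeR adjusted p = 5.18e-08 and 2.01e-08), or 2.20-fold and 2.33-fold. Mrps6 shares 159 exon bases on the same strand with Slc5a3, a myo-inositol transporter gene that lies within it, and Slc5a3 was also higher, by 1.19 with Ova and 1.42 with IC on the log2 scale (edgeR adjusted p = 2.60e-07 and 2.25e-08). How counting treated reads on shared exons is not given in the sources used here, and the part of those bases in the rise of Mrps6 was not tested.

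Mrps26 (ENSMUSG00000037740.8, chr2:130563742-130568695, GRCm38, plus strand), a small-subunit protein specific to mitochondria, rose from 22.0, 23.0, 22.1, 23.0 and 21.3 CPM in DMSO Ova to 42.1, 29.8, 39.4, 40.5 and 41.1 CPM in iBET Ova. In DMSO IC it was at 19.2, 19.4, 22.1, 20.5 and 20.9 CPM, and in iBET IC at 34.0, 34.0, 34.1, 33.1 and 34.4 CPM. Mouse B was low in iBET Ova, but still above all 10 DMSO libraries. In log2 terms the fold change was 0.79 ± 0.07 in Ova and 0.73 ± 0.07 in IC (edgeR adjusted p = 2.32e-08 and 7.10e-08).

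Mrpl49 (ENSMUSG00000007338.10, chr19:6053622-6057785, GRCm38, minus strand), a mitochondria-specific protein of the large subunit, was at 21.9, 20.3, 17.9, 19.9 and 20.0 CPM in DMSO Ova and at 35.8, 34.3, 34.4, 34.6 and 32.3 CPM in iBET Ova. With IC it was at 21.4, 18.5, 20.7, 19.2 and 19.3 CPM without iBET and at 37.4, 38.9, 34.6, 36.1 and 33.8 CPM with it. The iBET and DMSO values were far apart, and the mice were close together within each group. The iBET effect was 0.78 ± 0.06 with Ova and 0.87 ± 0.06 with IC (edgeR adjusted p = 1.93e-09 and 4.00e-10), the smallest adjusted p among the members in each. The 3′ ends of Mrpl49 and Syvn1, a ubiquitin ligase gene on the opposite strand, share 91 exon bases, and Syvn1 was higher by 0.72 and 0.64 (edgeR adjusted p = 6.18e-05 and 0.000208).

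Mrpl10 (ENSMUSG00000001445.10, chr11:97041560-97049213, GRCm38, plus strand), the protein on which the stalk of the large subunit is built, rose in 5 of 5 mice with each stimulus. It was at 29.1, 26.5, 27.7, 30.2 and 28.2 CPM in DMSO Ova, and at 41.8, 37.6, 41.1, 43.5 and 42.9 CPM in iBET Ova. In the IC groups it was at 28.3, 26.9, 26.0, 24.4 and 27.4 CPM without iBET and at 40.9, 41.4, 38.7, 41.2 and 39.7 CPM with iBET. The groups did not overlap, and the log2 fold change was 0.55 ± 0.05 in Ova and 0.60 ± 0.05 in IC (edgeR adjusted p = 4.88e-08 and 1.32e-08).

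The largest fall was in Mrpl19 (ENSMUSG00000030045.10, chr6:81957851-81965958, GRCm38, minus strand), a large-subunit protein with a bacterial homologue. It was at 24.8, 20.7, 21.2, 21.5 and 22.9 CPM in DMSO Ova, and at 13.2, 12.3, 10.2, 9.19 and 11.5 CPM in iBET Ova. Under IC stimulation it was at 20.4, 21.9, 22.7, 21.7 and 22.9 CPM without iBET and at 11.0, 13.0, 10.1, 10.1 and 9.40 CPM with it. Every iBET value lay under every DMSO value. On the log2 scale iBET gave -0.98 ± 0.10 with Ova and -1.03 ± 0.10 with IC (edgeR adjusted p = 4.04e-08 and 2.04e-08). Mrpl19 overlaps 1962 exon bases of Gcfc2 on the opposite strand, and Gcfc2 itself was at 0.12 with Ova and 0.05 with IC on the log2 fold scale, neither past the threshold.

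Mrpl11 (ENSMUSG00000024902.5, chr19:4962147-4966999, GRCm38, plus strand), which binds the ribosomal RNA at the base of the stalk, fell where its neighbour in the stalk, Mrpl10, rose. It was at 17.7, 15.4, 15.0, 17.4 and 16.2 CPM in DMSO Ova and at 9.21, 10.1, 9.68, 9.77 and 10.4 CPM in iBET Ova. Stimulated with IC it was at 16.6, 16.1, 19.0, 18.7 and 17.4 CPM without iBET and at 11.5, 10.8, 11.7, 13.1 and 10.3 CPM with it. The groups did not overlap with either stimulus. The fitted log2 change was -0.73 ± 0.07 with Ova and -0.61 ± 0.07 with IC (edgeR adjusted p = 8.00e-08 and 7.95e-07).

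The third stalk gene, Mrpl12 (ENSMUSG00000039640.7, chr11:120484613-120489065, GRCm38, plus strand), passed in neither comparison. It was at 31.3, 27.5, 32.0, 31.9 and 29.4 CPM in DMSO Ova and at 16.0, 20.6, 28.5, 26.0 and 34.4 CPM in iBET Ova. With IC it was at 20.0, 27.5, 34.9, 38.2 and 40.7 CPM without iBET and at 25.5, 29.1, 27.9, 34.5 and 32.0 CPM with it. The mice differed by more than the treatments, mouse A being lowest in 3 of the 4 groups. The log2 fold change was -0.28 ± 0.18 in Ova and -0.12 ± 0.18 in IC (edgeR adjusted p = 0.194 and 0.600). With the mouse as a block the Ova value was -0.32 ± 0.12 and passed (edgeR adjusted p = 0.0277). The Ova value was -0.70 in mice A and B alone and -0.02 in mice C, D and E (edgeR adjusted p = 0.0116 and 0.870).

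Mrpl37 (ENSMUSG00000028622.11, chr4:107055874-107066868, GRCm38, minus strand), a mitochondria-specific protein of the large subunit, was at 19.3, 17.4, 19.4, 20.8 and 19.5 CPM in DMSO Ova and at 10.6, 11.3, 12.3, 11.8 and 12.6 CPM in iBET Ova. In the IC groups it was at 17.5, 18.1, 18.0, 18.9 and 20.8 CPM without iBET and at 9.99, 11.9, 11.1, 11.3 and 12.8 CPM with it. No iBET library reached the lowest DMSO library. In log2 terms the fold change was -0.72 ± 0.07 in Ova and -0.71 ± 0.07 in IC (edgeR adjusted p = 8.71e-08 and 1.03e-07).

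**Figure D2:**
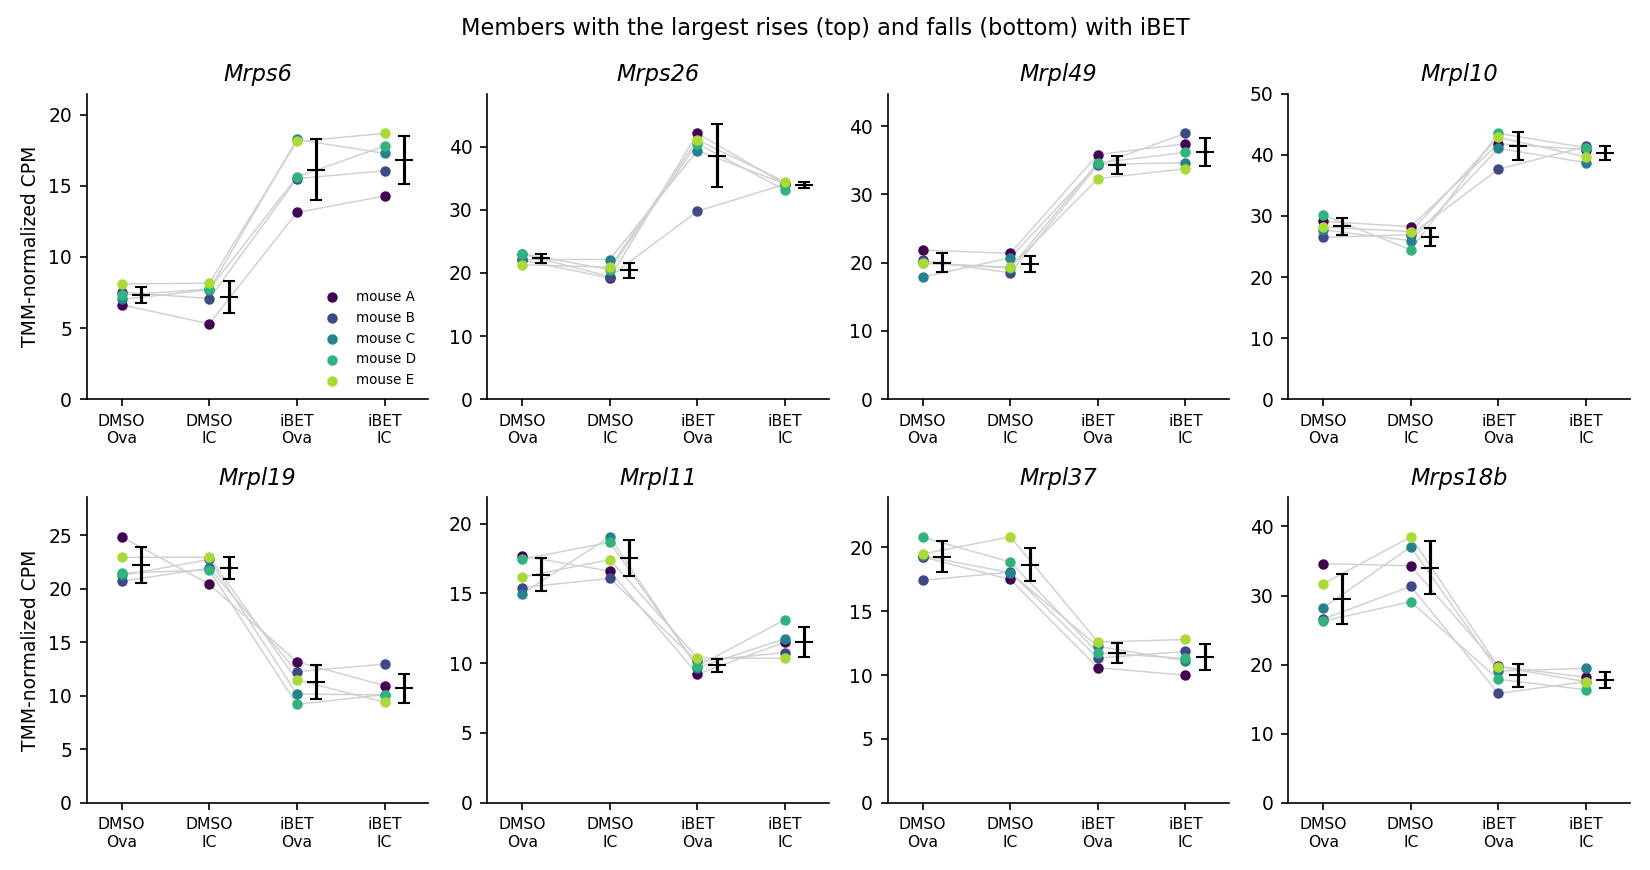
Normalised level in CPM of the 4 members with the largest rise (top) and the 4 with the largest fall (bottom) with iBET, for the 4 groups; points are mice A to E joined by lines, and bars are the mean ± SD of 5 mice, with each axis starting at 0. In all 8 genes the iBET points lie clear of the DMSO points of the same stimulus, Mrps6 being near 7 CPM without iBET and 13.1 to 18.7 CPM with it.

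The Mrps18 genes are a set of related genes whose products hold different places, Mrps18a in the large subunit, Mrps18b and Mrps18c in the small. All 3 were lower with iBET. Mrps18b (ENSMUSG00000024436.16, chr17:35910379-35916389, GRCm38, minus strand) was at 34.6, 26.6, 28.2, 26.3 and 31.7 CPM in DMSO Ova and at 19.8, 15.8, 19.1, 17.9 and 19.7 CPM in iBET Ova. Under IC stimulation it was at 34.3, 31.3, 37.1, 29.1 and 38.5 CPM without iBET and at 18.2, 17.5, 19.5, 16.4 and 17.5 CPM with it. The groups stood clear of each other, and the log2 fold change was -0.68 ± 0.09 in Ova and -0.94 ± 0.09 in IC (edgeR adjusted p = 3.40e-06 and 4.53e-08). Mrps18c (ENSMUSG00000016833.14, chr5:100798627-100804471, GRCm38, plus strand) was lower by -0.29 ± 0.08 with Ova (edgeR adjusted p = 0.00345), where 4 of 5 mice fell and mouse C, at 15.4 CPM in DMSO and 15.5 CPM in iBET, did not. With IC Mrps18c was lower by -0.32 ± 0.08 (edgeR adjusted p = 0.00144), and its 5 iBET IC values, 16.2 to 16.9 CPM, lay under its 5 DMSO IC values, 19.5 to 23.1 CPM. Mrps18a (ENSMUSG00000023967.9, chr17:46110986-46128910, GRCm38, plus strand) was lower by -0.17 ± 0.06 in Ova and by -0.33 ± 0.06 in IC (edgeR adjusted p = 0.0194 and 9.05e-05). Its groups overlapped with Ova and not with IC, and the Ova call was lost without mouse A or E.

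Of the other large-subunit members, several known to sit around the exit of the peptide tunnel or near the membrane were measured. Mrpl45, which holds the ribosome at the inner membrane, was lower by -0.38 ± 0.06 with Ova and -0.32 ± 0.06 with IC (edgeR adjusted p = 3.04e-05 and 0.000171). Mrpl22, Mrpl23 and Mrpl24, at the tunnel exit, passed with neither stimulus, with log2 fold changes between -0.13 and 0.10; Mrpl24 passed with IC with the mouse as a block (-0.13 ± 0.05, edgeR adjusted p = 0.0411). Mrpl47, also at the exit, was lower with Ova (-0.27 ± 0.10, edgeR adjusted p = 0.0288), a call lost without mouse B, C, D or E, and was not called with IC (-0.09 ± 0.10, edgeR adjusted p = 0.474). The falls next in size to those above were in Mrps35 (-0.65 and -0.54), Mrpl36 (-0.59 and -0.57), Mrpl3 (-0.55 and -0.52) and Mrps30 (-0.54 and -0.51), each called with Ova and with IC. Mrpl3 lies near the peptidyl transferase centre, and Mrps30, despite its name, belongs to the large subunit. Mrpl27, Mrpl51, Mrpl46, Mrpl35, Mrpl53 and Mrpl54 were each lower with both stimuli, by between -0.32 and -0.49. For Mrpl53, 88.0% of the annotated exon bases are shared on the same strand with Gm42688, a protein-coding gene absent from the count table. How counting treated reads on those bases is not given in the sources used here.

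Smaller rises were found with both stimuli in Mrpl41, Mrpl33, Mrps22, Mrps23 and Mrps25, of which Mrpl41 was the largest at 0.52 ± 0.07 with Ova and 0.42 ± 0.07 with IC (edgeR adjusted p = 4.69e-06 and 4.96e-05). Mrps22, Mrps23 and Mrps25 are small-subunit proteins specific to mitochondria, and their values lay between 0.21 and 0.35; with Ova the call of Mrps22 was lost without mouse A and that of Mrps23 without mouse A, C or E. The calls of Mrpl33 were lost without mouse D with either stimulus, and without mouse E with Ova. For Mrps25, 69.8% of the annotated exon bases are shared with Nr2c2, which was called in neither comparison (-0.07 and -0.00). Mrpl2, a core large-subunit protein near the catalytic centre, was higher with IC (0.37 ± 0.08, edgeR adjusted p = 0.000859), and with Ova it stood at 0.19 ± 0.08 (edgeR adjusted p = 0.0523), which passed with the mouse as a block (0.20 ± 0.07, edgeR adjusted p = 0.0117). Mrpl34 was higher with IC alone (0.22 ± 0.08, edgeR adjusted p = 0.0332; lost without mouse A, C, D or E) and stood at 0.16 ± 0.08 with Ova (edgeR adjusted p = 0.114). Mrps21 and Mrpl52, 2 of the most abundant members, were called with neither stimulus, though Mrpl52 passed with IC with the mouse as a block (-0.12 ± 0.05, edgeR adjusted p = 0.0345). Across the whole table, 23 of the 77 members share exon bases with another protein-coding gene, 4 of them on the same strand, and the strand setting of the counting is not given in the sources used here.

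The starts of mitochondrial ribosomal protein genes often lie back to back with another gene. Of the 77 members, 31 (40.3%) had a protein-coding gene on the opposite strand whose 5′ end lay within 1000 bases, beside 1827 of the 11353 protein-coding genes tested (16.1%). The neighbour was itself tested for 29. With Ova 1 of the higher members had a lower neighbour and 1 an uncalled neighbour. Of 13 lower members with a tested neighbour, the neighbour was higher for 3, lower for 2 and uncalled for 8. With IC 2 of the higher members had a lower neighbour and 1 an uncalled one, and among 15 lower members the neighbour was higher for 3, lower for 4 and uncalled for 8. In 0 pairs were member and neighbour both called higher.

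Examples differ from gene to gene. Cyb5rl, whose start lies 120 bases from that of Mrpl37, rose by 1.05 ± 0.18 with Ova and 1.46 ± 0.18 with IC (edgeR adjusted p = 5.44e-05 and 1.40e-06) where Mrpl37 fell. Fau, a cytosolic ribosomal protein gene that starts 59 bases from Mrpl49, stood at 0.02 ± 0.11 and 0.04 ± 0.11 (edgeR adjusted p = 0.874 and 0.801) where Mrpl49 rose. Ppp1r10, 45 bases from Mrps18b, stood at -0.01 ± 0.06 and -0.05 ± 0.06. Klc4, next to Mrpl2, fell by 0.79 and 0.61 on the log2 scale (edgeR adjusted p = 3.03e-06 and 6.62e-05), and Pnpla7, next to Mrpl41, by 0.61 and 0.40 (edgeR adjusted p = 0.00305 and 0.0372). Ncapd2, a condensin subunit gene 100 bases from Mrpl51, was lower together with it, by -0.30 and -0.43 (edgeR adjusted p = 0.00628 and 0.000296). In the pair Mrpl46 and Mrps11, both members, Mrpl46 was lower (-0.40 and -0.44) and Mrps11 was called in neither (0.09 and 0.09).

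**Figure D3:**
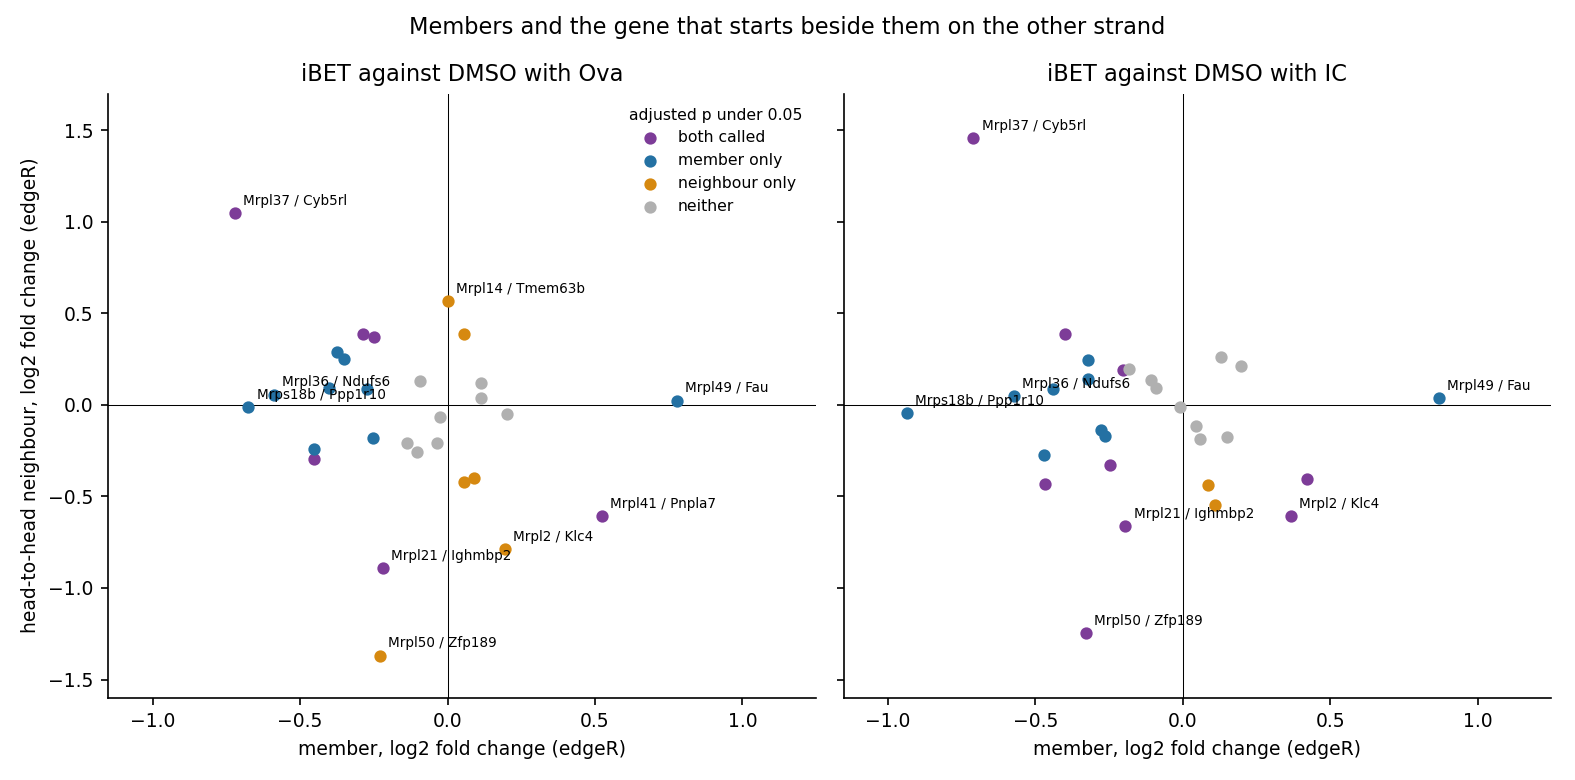
Log2 fold change (edgeR), iBET against DMSO, of 29 members (horizontal axis) and of the tested gene that starts within 1000 bases on the opposite strand (vertical axis), with Ova on the left and with IC on the right. Colours show which of the pair passed an adjusted p of 0.05. No purple point (both called) lies in the upper right, but few of the members called higher had a tested neighbour. Mrpl37 with Cyb5rl lies farthest to the upper left among pairs in which both were called.

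The sequence just upstream of the start is shown for the 2 risen and 2 fallen members with the smallest p with Ova for which RefSeq gave a window. The window reaches 250 bases up from the RefSeq start, which lies 2 to 159 bases inside the annotated start, so the part before the annotated start is shorter. For Mrpl11 this leaves 91 bases and for Mrps26 235, and those of Mrpl49 and Mrpl37 were also cut at the first exon of the neighbouring protein-coding gene. All are from GRCm38.p6, are written 5′ to 3′ on the strand of the member, and end at the base before the annotated start. Those of Mrpl49 and Mrpl37 are the whole stretches that separate them from Fau and Cyb5rl. They are chr19:6057786-6057843 (minus strand) for Mrpl49, chr2:130563507-130563741 (plus) for Mrps26, chr19:4962056-4962146 (plus) for Mrpl11 and chr4:107066869-107066987 (minus) for Mrpl37.
Mrpl49: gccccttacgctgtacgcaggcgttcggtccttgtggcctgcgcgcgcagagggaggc
Mrps26: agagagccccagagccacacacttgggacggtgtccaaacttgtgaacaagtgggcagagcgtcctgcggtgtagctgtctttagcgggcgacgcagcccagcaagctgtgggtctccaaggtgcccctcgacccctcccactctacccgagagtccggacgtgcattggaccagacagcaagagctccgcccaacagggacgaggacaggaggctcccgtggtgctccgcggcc
Mrpl11: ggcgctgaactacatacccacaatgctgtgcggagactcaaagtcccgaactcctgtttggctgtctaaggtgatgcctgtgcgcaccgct
Mrpl37: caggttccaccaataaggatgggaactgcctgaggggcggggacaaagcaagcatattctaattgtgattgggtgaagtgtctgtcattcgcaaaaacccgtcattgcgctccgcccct

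A set of 4 short motifs was searched on both strands in the 250 bases before the RefSeq start, which was available for 68 members, and none lies within the stretches printed, so no base is in capitals. The letters were gcgcatgcg for NRF1, ccggaag for ETS factors such as GABP, aagatggcg for YY1 and cacgtg for the E-box read by MYC among others. The full window of Mrps26 held the ETS letters and that of Mrpl37 the E-box, each not wholly within the stretch printed. The NRF1 letters were in 7 member windows (10.3%), beside 3.17% of the 9306 windows of tested genes and 1.48% of all 27025 windows. The ETS letters were in 15 (22.1%), beside 14.6% and 7.07%, the YY1 letters in 2 (2.94%), beside 1.24% and 0.592%, and the E-box in 5 (7.35%), beside 8.59% and 6.04%. Split by the call with Ova, ETS letters were in 3 of 10 windows of higher members, 8 of 25 of lower members and 4 of 33 of the others, and NRF1 letters in 2, 3 and 2. A match shows only that the letters are present.

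The comparison of IC with Ova changed fewer members, and mostly by small amounts. In DMSO 6 of 77 were higher and 2 lower, where 9.59% and 10.7% of all tested genes were higher and lower (edgeR quasi-likelihood test, Benjamini-Hochberg adjustment). With iBET 3 were higher and 1 lower, where 5.19% and 6.63% of all tested genes were. These comparisons share libraries with those of iBET above. The median member stood at 0.06 in DMSO and 0.07 with iBET, beside -0.02 and -0.01 over all genes. With the mouse as a block the counts were 10 higher and 3 lower in DMSO and 11 higher and 2 lower with iBET, while the shares of all genes rose to 18.3% and 19.8% in DMSO and to 14.2% and 14.7% with iBET. Leaving out mouse C left 2 higher in DMSO, where 568 of 12517 tested genes were. Leaving out mouse D left 3, where 659 of 12426 were. With all mice 1196 of 12465 were higher. Leaving out any 1 mouse left 1 lower in DMSO, where 612 to 1255 of all tested genes were. With iBET leaving out mouse A, B, C or D left 1 higher, where 284 to 466 of all genes were. With iBET leaving out mouse A, C, D or E left 0 lower, where 359 to 625 of all genes were. Scaling by library size alone gave 3 higher and 6 lower in DMSO and 1 higher and 3 lower with iBET, beside 4.67% and 20.8%, and 2.51% and 16.3%, of all genes, the median of all genes then being -0.13 and -0.12 and that of members -0.05 and -0.04. Mice A and B alone gave 0 calls in each, where 2.21% of all genes were higher and 1.79% lower in DMSO, and 1.45% and 0.921% with iBET. Mice C, D and E gave 10 higher and 1 lower in DMSO, where 14.8% and 12.4% of all genes were, and 1 and 1 with iBET, where 4.52% and 4.95% were.

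Mrpl41 (ENSMUSG00000036850.4, chr2:24974117-24975098, GRCm38, minus strand), a mitochondria-specific protein of the large subunit, had the largest rise with IC among the members in each case. It was at 16.0, 14.3, 13.5, 14.0 and 14.1 CPM in DMSO Ova and at 22.8, 19.4, 21.2, 20.6 and 20.1 CPM in DMSO IC. With iBET it was at 22.0, 20.1, 19.0, 23.5 and 18.7 CPM with Ova and at 30.0, 28.4, 25.5, 28.7 and 26.8 CPM with IC. The DMSO Ova libraries were the lowest, the iBET IC libraries the highest, and DMSO IC and iBET Ova lay together between them. The log2 fold change of IC against Ova was 0.53 ± 0.07 in DMSO (edgeR adjusted p = 5.03e-05) and 0.43 ± 0.07 with iBET (edgeR adjusted p = 0.000609), so Mrpl41 was higher in each of the 4 pairwise comparisons, which share libraries.

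Mrps18a was at 23.2, 19.0, 18.6, 19.6 and 22.4 CPM in DMSO Ova and at 27.5, 26.6, 26.8, 25.7 and 26.6 CPM in DMSO IC. In iBET Ova it was at 18.2, 18.8, 17.3, 18.7 and 18.0 CPM and in iBET IC at 21.8, 20.8, 20.7, 21.6 and 20.5 CPM. It was thus highest in DMSO IC, with no overlap between Ova and IC in either treatment. The log2 fold change with IC was 0.37 ± 0.06 in DMSO (edgeR adjusted p = 0.000259) and 0.21 ± 0.06 with iBET (edgeR adjusted p = 0.0271), and the latter call was lost when any 1 mouse was left out.

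Mrpl14 (ENSMUSG00000023939.7, chr17:45686322-45698495, GRCm38, plus strand), a large-subunit protein at the face that meets the small subunit, was at 8.83, 9.78, 9.70, 10.7 and 8.62 CPM in DMSO Ova and at 12.3, 9.99, 13.4, 15.2 and 13.1 CPM in DMSO IC. Mouse B hardly moved, and the groups overlapped through it. The log2 fold change of IC against Ova was 0.43 ± 0.11 in DMSO (edgeR adjusted p = 0.00878), a call that was lost without mouse C. With iBET the same comparison gave 0.24 ± 0.11 (edgeR adjusted p = 0.155), which passed with the mouse as a block (0.25 ± 0.08, edgeR adjusted p = 0.0340).

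Mrps9 (ENSMUSG00000060679.14, chr1:42851233-42905683, GRCm38, plus strand), a small-subunit protein with a bacterial homologue, fell with IC. It was at 17.6, 17.4, 18.9, 20.3 and 21.3 CPM in DMSO Ova and at 12.9, 13.0, 15.7, 15.0 and 15.2 CPM in DMSO IC, with no overlap. The log2 difference of IC from Ova was -0.41 ± 0.08 in DMSO (edgeR adjusted p = 0.00129) and -0.21 ± 0.08 with iBET (edgeR adjusted p = 0.0987). With the mouse as a block the latter passed at -0.20 ± 0.07 (edgeR adjusted p = 0.0343).

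The remaining calls with IC were small. In DMSO Mrps21 was higher by 0.28 ± 0.10 (edgeR adjusted p = 0.0458), Mrpl52 by 0.26 ± 0.07 (0.0132) and Mrpl18, which resembles the bacterial protein that binds 5S RNA, by 0.25 ± 0.08 (0.0297). Mrps21 lost its call without mouse A, C, D or E, Mrpl52 without mouse A, C or D, and Mrpl18 without mouse C, D or E. With iBET Mrps2 was higher by 0.18 ± 0.05 (edgeR adjusted p = 0.0288), a call lost without mouse A, B, C or D. Mrpl24 was lower in DMSO (-0.17 ± 0.06, edgeR adjusted p = 0.0499) and with iBET (-0.18 ± 0.06, edgeR adjusted p = 0.0498), and lost both calls when any 1 mouse was left out.

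**Figure D4:**
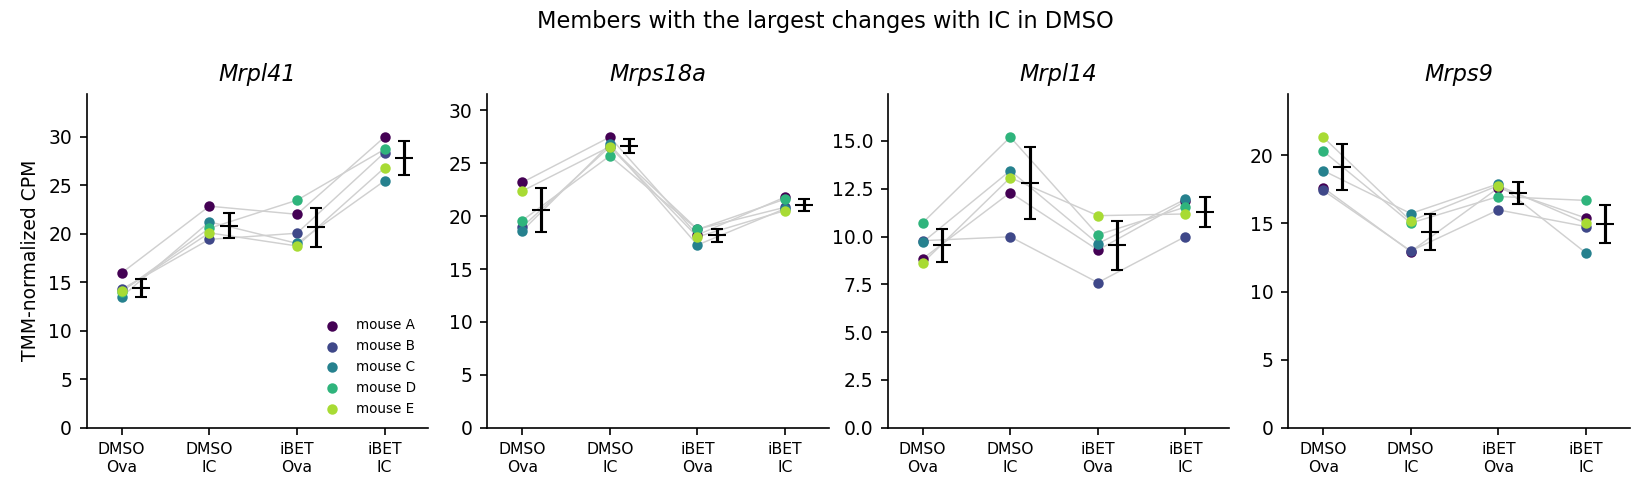
Normalised level in CPM of the 4 members with the largest changes with IC in DMSO, for the 4 groups; points are mice A to E joined by lines, and bars are the mean ± SD of 5 mice, with each axis starting at 0. Mrpl41 climbs from 14.4 CPM on average in DMSO Ova to 27.9 CPM in iBET IC, while Mrps9 is lower with IC in every mouse, with and without iBET.

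Whether iBET acted differently with IC than with Ova was tested by the interaction. It called 0 of 77 members higher and 0 lower (edgeR), where 0.0241% and 0.0160% of all tested genes were called, and 1 member was under an unadjusted p of 0.05. DESeq2 also called 0 in each direction. The nearest to the threshold among the members were Mrpl18 (-0.25 ± 0.11, edgeR adjusted p = 1.00) and Mrps18b (-0.26 ± 0.13, edgeR adjusted p = 1.00). In each the iBET change was lower with IC than with Ova in every mouse, but these 2 were picked by the smallest p in the same libraries. That agreement is therefore no support for a difference between stimuli. Mrpl18 was at 25.9 ± 2.69 CPM in DMSO Ova, 30.8 ± 2.02 in DMSO IC, 25.4 ± 1.32 in iBET Ova and 25.4 ± 2.44 in iBET IC (SD, n = 5).

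The other genes of mitochondrial translation were counted from fixed lists, read against the same shares of all genes. The 5 mitochondrial ribosomal proteins with other symbols gave 2 higher and 2 lower with each stimulus. Dap3, a GTP-binding small-subunit protein, was higher by 0.85 ± 0.06 with Ova and 0.84 ± 0.06 with IC (edgeR adjusted p = 8.42e-10 and 7.88e-10), and Ptcd3 by 0.29 and 0.23. Chchd1 was lower by -0.38 and -0.51, and Gadd45gip1 by -0.33 and -0.44. Of 26 assembly factors, which modify, fold or check the ribosome as it is built, 7 were higher and 10 lower with Ova and 9 and 10 with IC. Noa1, a GTPase needed for the small subunit, was higher by 1.31 ± 0.10 and 1.43 ± 0.10 (edgeR adjusted p = 1.05e-09 and 3.26e-10), and Nsun4, an rRNA methyltransferase, by 0.95 and 1.45. Fastkd2, an RNA-binding protein, was lower by -1.27 ± 0.11 and -1.14 ± 0.11 (edgeR adjusted p = 1.00e-08 and 3.44e-08), and Rpusd4, a pseudouridine synthase, by -0.95 and -0.83.

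Of 16 mitochondrial translation factors 2 were higher and 8 lower with each stimulus. Mtrf1, a release factor, was lower by -1.55 ± 0.18 and -1.46 ± 0.17 (edgeR adjusted p = 3.06e-07 and 6.71e-07), and Guf1 by -0.60 and -0.80. Mtfmt, which formylates the initiator methionine, was higher by 0.56 and 0.35, and Gfm2, which acts in ribosome recycling, by 0.20 and 0.15. Of 20 mitochondrial tRNA synthetases and related enzymes 4 were higher and 10 lower with Ova and 5 and 10 with IC. Nars2 and Mars2, for asparagine and methionine, were higher by 1.26 and 1.09 with Ova, and Ears2 and Tars2, for glutamate and threonine, were lower by -1.39 and -1.22. With IC these 4 stood at 1.33, 1.00, -1.59 and -0.91, all called. In the comparison of IC with Ova this list gave 0 higher and 6 lower in DMSO and 0 higher and 4 lower with iBET. Of 6 tested genes for mitochondrial DNA transcription 2 were higher and 3 lower with each stimulus. Polrmt, the RNA polymerase, was higher by 0.42 and 0.32 and Tfb2m, its initiation factor, by 0.26 and 0.21. Tfam, which packages the mitochondrial DNA, was lower by -0.39 and -0.51 (edgeR adjusted p = 0.000143 and 6.39e-06). Mterf1b stood at -1.03 (called) with Ova and -0.61 (not called) with IC, and Mterf1a was lower by -0.60 and -0.87.

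Among the nuclear regulators of mitochondrial genes, 1 of 9 tested was higher with each stimulus, and 4 were lower with Ova and 5 with IC. Nrf1, the activator whose letters were searched above, was higher by 0.56 ± 0.06 and 0.49 ± 0.06 (edgeR adjusted p = 3.35e-07 and 1.63e-06). The genes for the subunits of GABP, an ETS-type factor, were lower, Gabpa by -0.86 ± 0.07 and -0.97 ± 0.07 (edgeR adjusted p = 4.40e-09 and 7.88e-10), Gabpb1 by -0.30 and -0.40, and Gabpb2 by -0.60 and -0.60. The coactivator gene Ppargc1b was lower by -0.80 and -0.68, and Yy1 was lower with IC (-0.21) and not called with Ova (-0.08). Myc stood at 0.76 ± 0.36 with Ova (edgeR adjusted p = 0.0755; 0.75 ± 0.12 and called with the mouse as a block, edgeR adjusted p = 2.02e-05) and 0.29 ± 0.36 in IC, Esrra at 0.22 and 0.15, and Pprc1 at -0.33 and -0.44, none of them called. The block also called Esrra with Ova (0.21, edgeR adjusted p = 0.0271) and Pprc1 with IC (-0.46, edgeR adjusted p = 0.0127). Ppargc1a, with 31 counts in all 20 libraries, and Mterf2, with 140, were not tested.

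Counts were also taken in 2 gene groups close in function. Of 84 tested cytosolic ribosomal protein genes, 23 were higher and 1 lower with iBET, with Ova and again with IC, with medians of 0.12 and 0.13. Of 77 tested nuclear genes for subunits of oxidative phosphorylation, whose partners the mitochondrial ribosome makes, 19 were higher and 5 lower with Ova and 15 and 5 with IC, with medians of 0.12 and 0.09. The higher shares, 27.4% of the cytosolic group and 24.7% and 19.5% of the oxidative phosphorylation group, lay near or under the 27.7% and 27.1% of all tested genes, and the lower shares, 1.19% and 6.49%, lay under the 28.9% and 29.0%. With IC in DMSO, 38 of the 84 cytosolic ribosomal protein genes and 30 of the 77 oxidative phosphorylation genes were higher and 0 of either were lower, where 9.59% and 10.7% of all tested genes were, beside the 6 higher and 2 lower mitochondrial ribosomal protein genes. The difference between the groups was not tested.

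Over the 20 libraries most members followed their common mean to some degree and a minority ran against it. Of the 77, 66 had a positive Pearson's r with it, 39 of them above 0.5, and 11 had a negative one. This r, between a member and the mean standardised level of all members, ran from 0.870 for Mrpl21 and 0.845 for Mrpl48 to -0.46 for Mrps6, -0.43 for Mrps26 and -0.40 for Mrpl10. Among genes outside the set the closest to that mean were Sdhb (0.896), Eif4a3 (0.885), Arpc4 (0.881), Tomm5 (0.875) and Pdcd6 (0.872). These are descriptions over libraries that share mice, depth and treatment, and members contribute to the mean they are compared with.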

How the data were processed

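RNA from 20 BMDC cultures (5 mice in each of 4 groups) was sequenced after a low-input total RNA library preparation. According to the submitters' processing notes and the methods, the authors demultiplexed with CASAVA, trimmed with Trim Galore, checked reads with FastQC, aligned to mm10 with HISAT2 and assigned reads with featureCounts; annotation, strand setting and versions are not given in the sources used here. The authors deposited raw counts per gene symbol, and 0 columns were left unmapped to a sample.

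Counts were analysed with edgeR 4.0.16 in R 4.3.3 (filterByExpr, TMM scaling, 4 group means over 20 libraries, quasi-likelihood F test, Benjamini-Hochberg adjustment over 12465 genes, adjusted p under 0.05). CPM are TMM-normalised. Group membership came from the labels, and the script was tested on simulated data. Letters follow the order of the numbered sample titles, which name no mouse, and each letter is read as 1 mouse. Deviations from group means correlated between libraries of 1 letter (mean r = 0.524 over 30 pairs, 0.307 to 0.675). They did so less between letters (mean r = -0.127 over 120 pairs, -0.576 to 0.557). These ranges overlap, and the split of A and B from C, D and E enters both, so r does not settle which libraries share a mouse. Mouse as a block was an alternative, with DESeq2 1.42.0, other scalings, surrogate variables (sva 3.50.0) and mice left out. Positions and exons are from GENCODE M21 (GRCm38), which matched 23384 of 24421 symbols and all members.

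Members and lists were chosen with earlier results of these data known. Mrpl55, called lower with iBET in IC (-0.26), was moved between classes of the large subunit after the data were at hand. It went from those with a bacterial homologue to those specific to mitochondria, which changes the counts by class only. Members were named by rule: the 4 largest called rises and falls of each pairwise comparison, the 2 smallest interaction p where none was called, the 5 highest and 3 lowest levels per kb, the Mrps18 set and the stalk; members named beyond these were chosen after their values were seen.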

Additional observations from a re-analysis of the deposited data

Results flagged for a closer look

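In 104 groups of 5 libraries (25 named members and the summed level of all members), 4 held a library far from the other 4 by Dixon's test, of which chance gives about 1 in 20 groups. Mrps26 was lowest in mouse B in iBET Ova, at 29.8 CPM beside 39.4 CPM in the next library, and lowest in mouse D in iBET IC, at 33.1 CPM beside 34.0 CPM. Mrps10 was highest in mouse E in iBET IC, at 11.5 CPM beside 9.33 CPM. The summed level of the 77 members was lowest in mouse B in DMSO IC, at 1684 CPM beside 1789 CPM. Without mouse B or D, Mrps26 stayed past the threshold with both stimuli.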

How the results depend on the processing

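The calls of Mrps6, Mrps26, Mrpl49, Mrpl10, Mrpl19, Mrpl11, Mrpl37 and Mrps18b with iBET held under all 15 alternatives tried for each. With the mouse as a replicate block 14 members were higher and 33 lower with iBET in Ova, and 16 and 33 in IC. Of all tested genes 33.5% and 35.2% then were in Ova, and 32.6% and 35.4% in IC. For IC against Ova the block gave 10 and 3 in DMSO, where 18.3% and 19.8% of all genes were. With iBET it gave 11 and 2, where 14.2% and 14.7% were. No call was lost. DESeq2 with the block gave 10 and 3, and 11 and 2, for IC against Ova. Over all 24421 genes it gave 2237 and 2298, and 1817 and 1723. Requiring an absolute log2 fold change of 0.5 left 5 higher and 8 lower with iBET in Ova, 4 and 8 in IC, 1 and 0 for IC against Ova in DMSO and 0 and 0 with iBET. The share of all tested genes at that size was not counted. Library size alone gave 6 higher with iBET in Ova, 3 higher and 6 lower for IC in DMSO and 1 and 3 with iBET. Surrogate variables gave 18 higher with iBET in Ova and 19 in IC, where 4321 and 4108 of 12465 genes were. They gave 5 lower for IC in DMSO and 3 with iBET, where 2036 and 1611 of 12465 genes were. DESeq2 size factors gave 1 lower for IC in DMSO and 0 with iBET, where 1342 and 812 of 12465 genes were. Without the low-count filter 1 was lower for IC in DMSO, where 1062 of 18234 genes were. With iBET 1 was higher and 0 lower without it, where 476 and 657 of 18234 genes were. The 10 libraries of the groups compared gave 1 lower in DMSO and 0 with iBET, where 976 of 12137 and 682 of 11983 genes were. Mice A and B alone gave 5 higher with iBET in Ova, 11 lower in IC, and 0 calls of any kind for IC; mice C, D and E gave 17 higher and 17 lower with iBET in Ova, 10 higher and 1 lower for IC in DMSO and 1 higher with iBET. Leaving out 1 mouse gave 7 to 15 higher and 21 to 25 lower with iBET in Ova, and 9 to 12 and 21 to 28 in IC. Over all tested genes it gave 3041 to 3514 and 3080 to 3446 in Ova, and 2945 to 3332 and 3101 to 3496 in IC. For IC against Ova it gave 2 to 6 and 1 to 1 in DMSO, and 1 to 3 and 0 to 1 with iBET. Over all tested genes these were 568 to 1222 and 612 to 1255, and 284 to 552 and 359 to 625. The interaction gave 0 calls in every alternative. Of 14 changes of sign, none was in a value called in the report: Mrpl14 with Ova at -0.050 (library size), -0.13 (mice A and B) and -0.092 to 0.113 (leaving out 1 mouse); Mrps21 at -0.052 and Mrpl34 at -0.045 with Ova in mice A and B; Mrpl18 with Ova at 0.057 in mice C, D and E and -0.048 to 0.011 leaving out 1 mouse; Mrpl52 with Ova at 0.0088 (no filter), 0.059 (mice C, D and E) and -0.022 to 0.041 (leaving out 1 mouse); Mrps10 with Ova at 0.0045 and Mrps9 with IC at -0.017 in mice C, D and E; and Mrpl12 with IC at 0.22 in mice A and B. The changes listed are all for iBET against DMSO. For IC against Ova in DMSO some members also differed in sign between mice A and B and mice C, D and E. Among them were Mrpl12 (-0.32 and 0.30) and Mrpl47 (0.16 and -0.10), neither called in DMSO. Apart from fewer samples or genes tested, the cause of a change of sign was not tested. No member had under 84 counts in a library, and what limits the number of calls was not tested.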
